A study of Drosophila melanogaster with 2 samples.

Results

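Binding of the zinc finger protein Wdn, encoded by wings down, was mapped by ChIP-seq in whole Drosophila melanogaster embryos. The peaks described here lie just upstream of annotated gene starts without a diverging partner within 500 bp of the summit. Such starts are called one-directional from the annotation alone. A peak of the list made from both replicates was a member when its summit, the position of highest signal, lay within 500 bp of an annotated transcript start on dm6 and upstream of the nearest one along the gene. It also had no minus-strand start on its left and plus-strand start on its right, both within 500 bp, so no promoter pair facing away from each other enclosed it. Of 3254 listed peaks, 867 met the rule (26.6%, 95% exact binomial interval 25.1 to 28.2%), while 525 lay between diverging starts and 313 downstream of the nearest start. The embryos were collected 0 to 24 h after laying from the strain wdn-GFP, a transgenic line expressing a wdn-eGFP fusion, and chromatin was recovered with an antibody against GFP. There was 1 group of 2 biological replicates, and a control library named as possible in the labels was not analysed here. The tagged protein stands in for the endogenous one, and the whole organism mixes all embryonic cell types over a day of development. Binding in few cells and weak binding in many cells therefore cannot be told apart. The 2 replicates alone gave 1996 and 1796 peaks, of which 568 and 527 had summits in the same one-directional upstream position. Nothing in the lists gives read depth, so the number of peaks and replicates limits the precision, and intervals cover counting error only.

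A promoter is the stretch of DNA around a transcription start where RNA polymerase II is loaded. In the compact fly genome many genes share an upstream region with a neighbour read the other way, and others have the region to themselves, as here. Fly core promoters are commonly sorted by short sequence elements: the TATA box, bound by TBP; the DRE, bound by Dref, and Motif 1, bound by M1BP, both typical of housekeeping genes; and GAGA repeats, bound by Trl. C2H2 zinc finger proteins such as Wdn form a large family whose fingers read specific DNA letters.

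The letters under the 5 strongest members that can be shown in full without touching an annotated exon are given first, because their stretches of A and T recur in the composition described further on. Each line is the 101 bp centred on the summit, on dm6, from RefSeq and read in the direction of the gene. Capitals mark runs of at least 8 bases made only of A and T.
CG14100 (chr3L:19590568-19590668, minus strand): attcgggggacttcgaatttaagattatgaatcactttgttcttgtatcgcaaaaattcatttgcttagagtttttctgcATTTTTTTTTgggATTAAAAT
ph-p (chrX:2137303-2137403, minus strand): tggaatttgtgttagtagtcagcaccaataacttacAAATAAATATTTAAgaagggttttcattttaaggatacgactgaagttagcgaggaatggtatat
CG18549 (chr3R:12449120-12449220, plus strand): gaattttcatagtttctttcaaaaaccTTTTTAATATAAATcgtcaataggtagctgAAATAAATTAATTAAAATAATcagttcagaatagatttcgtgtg
Gapdh2 (chrX:15867945-15868045, plus strand): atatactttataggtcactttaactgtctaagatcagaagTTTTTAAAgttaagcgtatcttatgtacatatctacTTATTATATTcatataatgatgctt
lncRNA:CR31044 (chr3R:29214392-29214492, plus strand): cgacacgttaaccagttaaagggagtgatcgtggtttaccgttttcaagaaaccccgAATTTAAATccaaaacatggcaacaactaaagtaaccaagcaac
Every window of these 5 had at least 1 such run, the longest being 21 bases at CG18549. A run was present in 68.6% of all members (595 of 867) and in 82.0% of their strongest 25% by signal. Peaks between diverging starts had one more often than members, in 81.9% (430 of 525, 78.3 to 85.1%). The share was 45.0% in ranked, unlisted summits of the same position and 60.9% in all one-directional starts at the members' median position. The A and T content of the 5 windows ran from 59.4% at lncRNA:CR31044 to 76.2% at CG18549. The signal at CG14100, a protein-coding gene, was 1483 in the joint list, 655 in replicate 1 and 829 in replicate 2, the highest of any listed peak. At Gapdh2, a glyceraldehyde-3-phosphate dehydrogenase of glycolysis, the signals were 666, 358 and 308 in the same order.

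The word CACAGTG was found near 28 member summits, and the 5 strongest of these that can be shown are given here. Capitals mark the word, or its reverse complement CACTGTG.
RpL23A (chr3L:1668710-1668810, minus strand): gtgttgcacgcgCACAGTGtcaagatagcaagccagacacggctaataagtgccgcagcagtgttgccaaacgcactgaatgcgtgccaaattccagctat
CG31808 (chr2L:16716295-16716395, minus strand): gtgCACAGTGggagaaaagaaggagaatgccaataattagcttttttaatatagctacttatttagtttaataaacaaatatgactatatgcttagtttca
Top1 (chrX:15323380-15323480, plus strand): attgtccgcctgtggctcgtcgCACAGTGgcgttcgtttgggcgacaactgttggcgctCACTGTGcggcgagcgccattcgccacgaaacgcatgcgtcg
pigs (chrX:6601932-6602032, plus strand): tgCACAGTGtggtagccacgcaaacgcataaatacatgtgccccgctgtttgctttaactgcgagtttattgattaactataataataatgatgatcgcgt
fkh (chr3R:28585462-28585562, minus strand): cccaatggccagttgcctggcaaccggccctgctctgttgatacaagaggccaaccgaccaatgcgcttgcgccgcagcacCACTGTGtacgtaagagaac
RpL23A, a protein of the large ribosomal subunit, had a joint signal of 221, with 117 in replicate 1 and 101 in replicate 2. Top1, DNA topoisomerase I, carried the word on each strand and had signals of 175, 77.7 and 92.0. Its window held 36.6% A and T, the lowest value in the strongest 25% of the members among the windows that can be shown. The A and T content of the other 4 ran from 40.6% at fkh to 71.3% at CG31808. At fkh, the fork head transcription factor of the embryonic gut and salivary gland, the signals were 101, 52.6 and 42.4.

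The 3 strongest members with the DRE that can be shown follow, with TATCGATA in capitals.
B52 (chr3R:13661180-13661280, plus strand): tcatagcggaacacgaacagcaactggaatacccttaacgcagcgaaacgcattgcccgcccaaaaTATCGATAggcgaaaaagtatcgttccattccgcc
Pep (chr3L:17645071-17645171, minus strand): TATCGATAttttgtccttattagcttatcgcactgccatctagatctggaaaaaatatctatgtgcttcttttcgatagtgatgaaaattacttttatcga
Top2 (chr2L:19453491-19453591, minus strand): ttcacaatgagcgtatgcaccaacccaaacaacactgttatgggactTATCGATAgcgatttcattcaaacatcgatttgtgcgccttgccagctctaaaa
B52, a splicing factor of the SR family, had signals of 83.9, 35.0 and 42.1 in the joint list and the replicates. Pep, a protein found on ecdysone puffs, had 56.3, 26.5 and 27.7. Top2, DNA topoisomerase II, had 56.2, 33.7 and 24.3. All 3 were far weaker than the members of the first set, which are the strongest of all members that can be shown. Stronger members with the DRE could not be shown. The 20 members with the DRE had a median signal of 80.4, close to the 83.5 of all members. Among the windows of the strongest 25% that can be shown, the next lowest in A and T after Top1, chosen after its values were seen, belonged to su(r), which encodes a dihydropyrimidine dehydrogenase. It has no run of 8 A or T bases and therefore no capitals.
su(r) (chrX:9201887-9201987, minus strand): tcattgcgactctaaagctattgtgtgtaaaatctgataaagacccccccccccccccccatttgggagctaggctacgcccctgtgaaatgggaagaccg
Its A and T content was 46.5%, and its signals were 219, 120 and 95.8.

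The starts behind which the strongest members sat belonged to genes of many kinds. For 7 of the 20 strongest (ph-p, px, CG1888, Fkbp14, MFS10, TRAM and gish) the nearest start was an internal one, so the summit lay inside the gene and not upstream of all of it. Joint signals of the 867 centred on a median of 83.5, with quartiles 61.7 and 134, and the 20 strongest lay between 550 and 1483. The second was Ugalt, a transporter of UDP-galactose into the Golgi, with a signal of 1300 and a summit at -45 bp, negative meaning upstream. The third, mRpL41, a protein of the mitochondrial ribosome, had 1224 at -147 bp. The Polycomb group gene ph-p had 827 at -498 bp, and its replicates gave 419 and 414. Among the 20, lncRNA:CR44619 (746), lncRNA:CR44339 (597) and lncRNA:CR31044 (580), served long noncoding RNA genes. Membrane components were MFS10 of the major facilitator transporters (624) and TRAM of the protein translocation machinery of the endoplasmic reticulum (586). Fkbp14, a prolyl isomerase, had 632, the prohormone convertase gene amon 577, the transcription factor gene Sox14 561 and the casein kinase gene gish 556. RluA-1, of the pseudouridine synthase family, closed the 20 with 550. The others were CG18549 (725), px (673), Gapdh2 (666), CG1888 (664), Tina-1 (594) and CG1635 (553), with CG14100 at the head. All 20 were in the own lists of both replicates.

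Most member summits lay between 50 and 250 bp upstream of the start. The median position was -156 bp, with quartiles -258.5 and -87. In the replicates' own lists the medians were -168 and -165 bp, a spread of 2.12 bp (SD, n = 2), so both lay farther upstream than the joint list. Ranked summits of the same position that did not enter the list, 7173 in all, were spread more evenly, with a median of -204 bp and quartiles -347 and -86. The share of ranked summits that were listed was 9.58% (113 of 1179) at 1 to 50 bp and 17.3% (141 of 814, interval 14.8 to 20.1%) at 151 to 200 bp. It then fell bin by bin to 4.19% (25 of 596, 2.73 to 6.13%) at 451 to 500 bp. These shares are descriptions over peaks, which are not replicates.

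**Figure D1:**
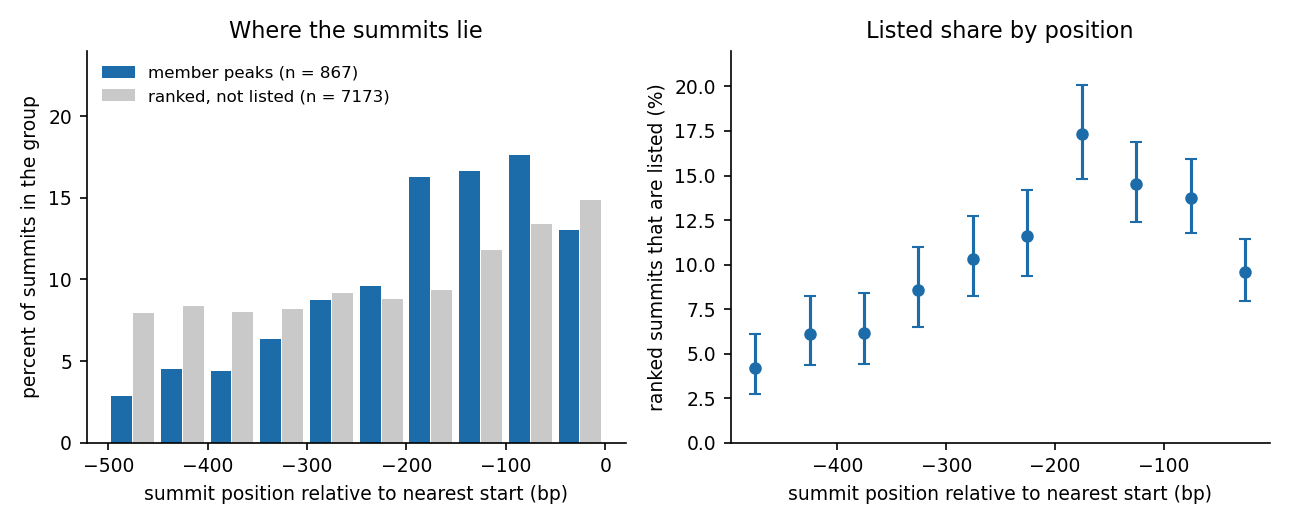
Left, percent of member summits (blue) and of ranked, unlisted summits (grey) in 50 bp bins of distance upstream of the nearest start; right, percent of ranked summits that were listed in each bin, with 95% exact binomial intervals. The listed share is highest at 151 to 200 bp, at 17.3%, and lowest at 451 to 500 bp, at 4.19%.

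A ranked summit was listed more often at one-directional promoters than downstream of a start and less often than between diverging starts. Over all ranked summits on the 7 chromosomes used, 2.49% were listed (3248 of 130496). Upstream of one-directional starts 867 of 8040 were, or 10.8% (10.1 to 11.5%). Between diverging starts the share was 34.0% (525 of 1544, 31.6 to 36.4%; odds ratio of members 0.235, adjusted p = 8.87e-102, two-sided Fisher's exact test with Benjamini-Hochberg adjustment over 30 class comparisons). Downstream of starts it was 2.63% (313 of 11895; odds ratio 4.47, adjusted p = 1.48e-123, Fisher's exact test). Both differences kept their side of the threshold in each replicate's own list and in all other alternatives run. These p-values and those below are over peaks, and peaks next to each other or at starts of the same gene are not independent.

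Members were also intermediate in strength and in their recovery from single replicates. Both replicates' own lists held 44.6% of members (387 of 867, 41.3 to 48.0%), against 53.1% of peaks between diverging starts (odds ratio 0.711, adjusted p = 0.00774, Fisher's exact test) and 28.8% of downstream peaks (odds ratio 2.00, adjusted p = 5.13e-06). The first difference was lost in the conservative list (adjusted p = 0.0690, Fisher's exact test) and with a flanking window of 1000 bp (0.167), and both were lost when the IDR had to be 0.001 or lower (0.328 and 1). The strongest 25% of the whole list held 31.1% of members (270 peaks) and 17.3% of downstream peaks (odds ratio 2.17, adjusted p = 6.77e-06, Fisher's exact test). It held 36.8% of peaks between diverging starts, a difference that missed the threshold (odds ratio 0.778, adjusted p = 0.0855, Fisher's exact test). Without replicate 1 the direction of that difference turned, also short of the threshold (odds ratio 1.11, adjusted p = 0.623, Fisher's exact test). The difference from downstream peaks was lost with that IDR limit (adjusted p = 0.730, Fisher's exact test) and without replicate 1 (0.584), and with a window of 300 bp the difference from diverging starts passed (odds ratio 0.637, adjusted p = 0.00163).

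**Figure D2:**
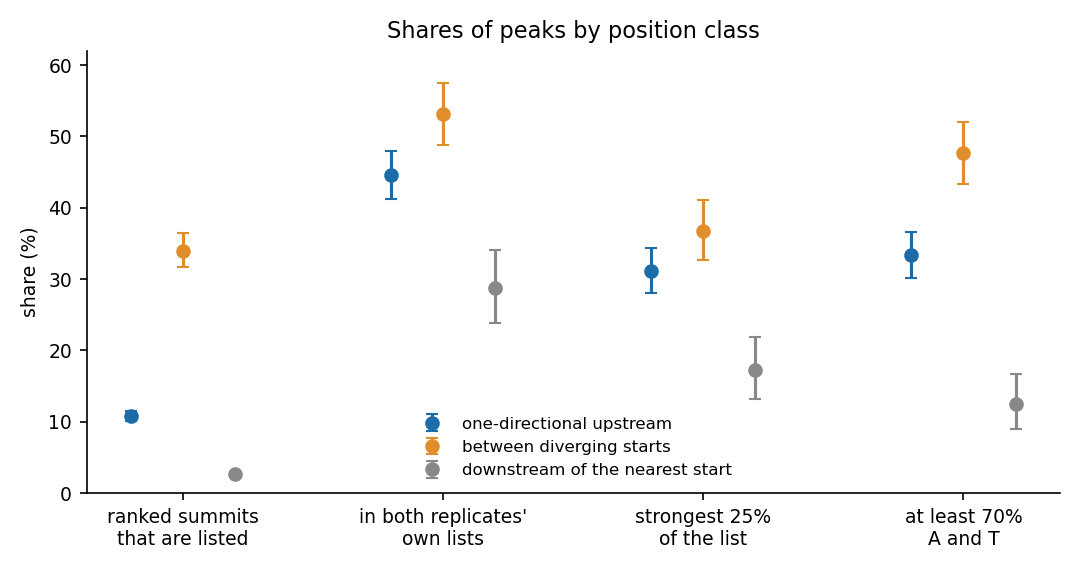
Percent of peaks with each property for members (blue), peaks between diverging starts (orange) and peaks downstream of the nearest start (grey), with 95% exact binomial intervals. Members lie between the other classes in all 4 properties, for example at 10.8% listed against 34.0% and 2.63%.

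Nearly all members had a ranked peak in both replicates, while 538 were in the own list of replicate 1 and 508 in that of replicate 2. A ranked peak overlapped the member in both replicates for 852 of the 867, with median signals of 45.5 in replicate 1 and 42.7 in replicate 2. Across these 852 peaks, which share their libraries, the signals had a Spearman rho of 0.654 and, on the log2 scale, a Pearson r of 0.735. Signals differed by more than 2 times in 116, of which 66 were higher in replicate 1 and 50 in replicate 2. The 387 members in both own lists had a median joint signal of 144 (quartiles 105 and 230). The 151 found only in that of replicate 1 and the 121 found only in that of replicate 2 had medians of 72.6 and 74.1. The 208 in neither had a median of 56.9 (51.2 and 63.5). Of the strongest 25% of members 214 of 217 were in both own lists, and of the weakest 25% 5 of 217.

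**Figure D3:**
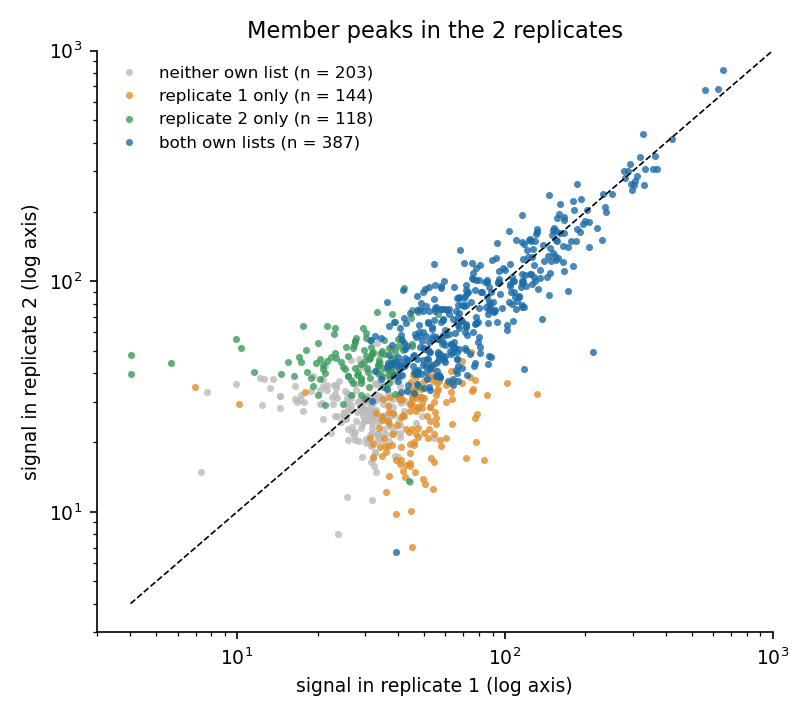
Signal of each member in replicate 1 (x) and replicate 2 (y), both on log axes, for the 852 members with a ranked peak in both; colours give the own lists that held the peak and the dashed line marks equal signal. The 387 members in both own lists run along the line to the highest signals, and those in neither form the lower group.

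Member summits lay in DNA rich in A and T, and the strongest the most so. Within 50 bp of the summit members held 63.5% A and T (SD 11.0 over 867 peaks). Ranked, unlisted summits of the same position held 55.4% (SD 10.1). The same measure at -156 bp of all 15531 one-directional starts, listed or not, was 61.3% (SD 11.0), closer to the members than the unlisted summits were. With members split by signal into 4 equal groups, the mean from the strongest to the weakest was 69.0, 64.8, 61.1 and 59.1%, with SDs over peaks of 8.86 to 11.1 percentage points. Single strong members departed far from this. The lowest of the strongest 25% was Dll, a homeobox gene of limb development, with 31.7% and a joint signal of 266. Its replicates were uneven, with 214 in replicate 1 and 49.5 in replicate 2, though both own lists held it. Windows with at least 70% A and T made up 33.3% of members (289 peaks), 47.6% of peaks between diverging starts (odds ratio 0.550, adjusted p = 1.24e-06, Fisher's exact test) and 12.5% of downstream peaks (odds ratio 3.51, adjusted p = 1.57e-12). With a flanking window of 1000 bp, which moves into the diverging class members with an opposite start that far behind them, the first difference missed the threshold (odds ratio 0.781, adjusted p = 0.0767, Fisher's exact test).

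The composition was lopsided along the gene. From 101 to 200 bp behind the summit, away from the start, members held 61.8% A and T, and over the same distance ahead of it 54.1%. The direction was not particular to members. Peaks between diverging starts held 63.9% behind and 58.1% ahead, and ranked, unlisted summits 58.3 and 56.1%. In the strongest 25% of members these flanks held 59.0 and 52.2%, around a centre of 69.0%, so the content peaked at the summit. In the weakest 25% the centre, at 59.1%, was below the flank behind it, at 63.0%. Runs of 6 were unevenly placed as well. AAAAAA, read in the gene's direction, occurred within 100 bp behind the summit in 14.9% of members (12.6 to 17.4%) and ahead of it in 8.77% (6.97 to 10.8%). TTTTTT occurred behind in 13.1% and ahead in 15.9%. In the ranked, unlisted summits the 4 shares lay between 8.63 and 9.23%.

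**Figure D4:**
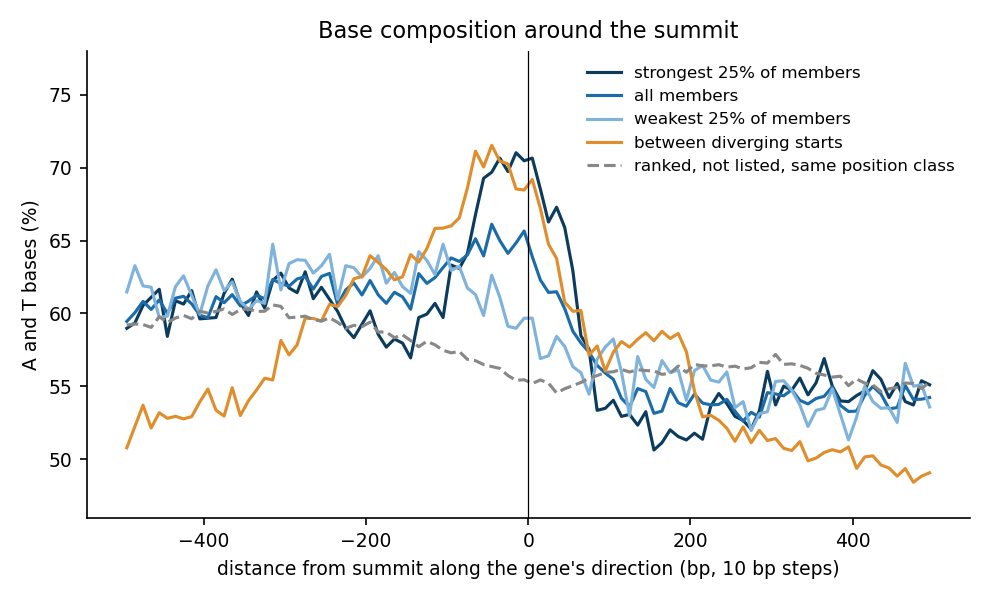
Percent of A and T in 10 bp steps from 500 bp behind the summit (left) to 500 bp ahead of it in the gene's direction, for all members, their strongest and weakest 25%, peaks between diverging starts and ranked, unlisted summits of the same position. Within 50 bp of the summit the strongest 25% of members hold 69.0% and the unlisted summits 55.4%.

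Of 11 sequence elements looked for on either strand, up to 50 bp from the summit, the TATA box, spelled TATAAA here, was the most frequent in members. It was found in 20.4% (177 peaks, 17.8 to 23.3%), against 11.4% of ranked, unlisted summits and 16.7% of all one-directional starts at -156 bp. It was less frequent than between diverging starts, at 26.7% (odds ratio 0.705, adjusted p = 0.0226, Fisher's exact test), and more frequent than downstream, at 11.2% (odds ratio 2.04, adjusted p = 0.000778). Members with it lay at a median of -183 bp, with 123 of 236 matches on the gene's strand. They held 71.0% A and T, against 63.5% in all members. The word is made of A and T only, and whether it acts as a core promoter element here was not tested. The GAGA repeat GAGAGAG was found in 3.34% of members (29 peaks) and in 0 of 525 peaks between diverging starts, which allows up to 0.700% (adjusted p = 6.77e-06, Fisher's exact test). Members were not enriched in it, with 3.54% in ranked, unlisted summits and 3.397% in all one-directional starts at -156 bp. The difference thus lay in the absence of the word between diverging starts. The word TTAAAAAA was found in 6.69% of members and 2.56% of downstream peaks (odds ratio 2.73, adjusted p = 0.0177, Fisher's exact test). These 4 were the calls among 22 motif comparisons. In members found in the own list of replicate 2 none of the 22 passed, and in those found in that of replicate 1 only GAGA against diverging starts did.

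The remaining elements did not pass against either class within 50 bp. Within 100 bp of the summit, members had fewer DRE (odds ratio 0.376, adjusted p = 1.64e-05, Fisher's exact test), Motif 6 (0.248, 0.0165), Motif 7 (0.460, 1.01e-06) and TATATTAA matches (0.557, 0.0139) than peaks between diverging starts. For Motif 7 that turned the direction, from an odds ratio of 1.07. CACAGTG was more frequent in members there (odds ratio 2.06, adjusted p = 0.00498, Fisher's exact test), and TATATTAA was also more frequent than downstream (3.37, 0.0108). DRE matches, spelled TATCGATA, were in 2.31% of members, 3.43% of peaks between diverging starts and 5 of 313 peaks downstream. Motif 1 (GGTCACACT) was in 1.04%, Motif 6 in 0.231%, Motif 7 (CANCNCTA) in 6.11% and CAGCTG in 3.92%. CACAGTG was in 3.23% (28 peaks), TATATTAA in 3.23% and AAAAATGT in 3.81%, against 1.49, 0.711 and 1.81% of ranked, unlisted summits. Some of these words can overlap one another or the TATA box. Shares differed between members of different strength for some elements. From the strongest to the weakest of the 4 groups the TATA box was in 65 of 217, 45 of 216, 39 of 217 and 28 of 217 members, while Motif 7 was in 2.76, 4.63, 6.45 and 10.6%. GAGA was in 1 of 217 members of the strongest group and 11 of 217 of the weakest, and Motif 1 in 0 and 5. The DRE (4, 5, 6 and 5 members), CACAGTG (5, 9, 8 and 6) and TTAAAAAA (19, 13, 11 and 15) showed no steady order. No trend was tested.

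The order of frequencies changed when the promoter itself was searched, in a window wider than the 101 bp around the summit. In the window from 150 bp before to 50 bp after the start, CACAGTG was present at 8.82% of the 850 distinct starts of members (75 starts) and at 2.34% of 14740 other one-directional starts. GAGA was at 15.1% and 5.71%, CAGCTG at 16.0% and 10.9%, and Motif 7 at 11.6% and 7.35%. The DRE was at 5.18% and 3.46%. The TATA box went the other way, at 20.6% of member starts and 29.1% of the others. No test was made of these shares, and a match is a run of letters, not a bound site.

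The 5 strongest members with CACAGTG near the summit were TRAM (586), CG7737 (262), RpL23A (221), CG31808 (215) and Top1 (175). The 5 strongest with the DRE were Alg3, a mannosyltransferase (275), CG1827 (242), eEF1gamma, a translation elongation factor (197), Ufc1, which conjugates the modifier UFM1 (155), and Irp-1A, an iron regulatory protein (116). The 20 DRE members lay close to their starts, with a median of -42.5 bp, and held 57.8% A and T (SD 9.19).

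The 867 members served 814 genes, 13.0% of the 6252 genes with a ranked summit in the same position. Among 17 gene lists, cytosolic ribosomal protein genes were served most often, 19 of 36 with a ranked summit (52.8%, 35.5 to 69.6%). The median of their 20 signals was 82.5, close to the 83.5 of all members, with a median position of -23.5 bp, with 17 of the 20 within 50 bp of the start against 113 of all 867. The strongest were RpL23A (221 at -106 bp), RpL24 (146 at -26 bp) and RpS4 (122 at -20 bp). RpL24 had 77.3 in replicate 1 and 65.0 in replicate 2, and RpS4 had 47.0 and 75.0. In each replicate's own list the share was above that of all genes there, 12 of 25 against 12.1% in replicate 1 and 18 of 29 against 11.5% in replicate 2. With a flanking window of 1000 bp, 9 of 23 were served, against 12.3% of all genes.

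Heat shock and chaperonin genes were served in 4 of 11 cases (36.4%, 10.9 to 69.2%), beside 13.0% of all genes. With the passing ranked peaks that the list lacks added, 5 were served. All 4 listed peaks were in the own lists of both replicates. Hsp27 had a signal of 311, with 157 in replicate 1 and 149 in replicate 2. Hsp83, the fly Hsp90, had 202 (113 and 85.9), and Hsp26 had 136 (67.1 and 64.6). The 4 lay on the same chromosome arm, 3L, and were not 4 separate loci. Hsp22, Hsp26 and Hsp27 lay close together there, with summits at 9373564, 9377552 and 9383898. The nervous system list had 3 of 17, all strong. They were moody, a receptor of the glial blood-brain barrier, with 490 (252 and 238), elav, an RNA-binding protein of neurons, with 323 (153 and 170), and numb, which segregates fate in asymmetric divisions, with 219 (108 and 101). The order of the 3 was the same in both replicates.

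Against 13.0% of all genes, axis and germ layer patterning genes were served in 5 of 24 cases (20.8%, 7.13 to 42.2%). They were nkd, a Wnt pathway antagonist (139), tin, the heart homeobox gene (135), fkh (101), ptc, the Hedgehog receptor (78.7), and bcd, the anterior determinant (49.8). The cell cycle list had 4 of 10 (40.0%, 12.2 to 73.8%). The highest were Dp, the E2F partner (168), CycE, cyclin E (79.0), and fzr, an activator of the anaphase-promoting complex (63.1). Of these only Dp was in both own lists. With the IDR limit of 0.001 the cell cycle count was 1 of 10, against 7.97% of all genes, and without replicate 1 it was 1 of 9, against 11.5%.

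The other lists had few members each, and their shares stand beside the 13.0% of all genes. Mitochondrial ribosomal proteins had 2 of 9 (22.2%), mRpL41 (1224) and mRpL4 (54.0, with 45.0 in replicate 1 and 7.05 in replicate 2). Oxidative phosphorylation had 3 of 23 (13.0%), the complex I subunits ND-20 (59.0), ND-B22 (56.3) and ND-B17 (49.9), none in both own lists. Translation initiation factors had 2 of 18 (11.1%), eIF5B (129) and eIF3c (88.2). Polycomb and trithorax genes had 2 of 9 (22.2%), ph-p (827) and ph-d (26.0, a peak that overlaps a stronger one). No member served the aminoacyl-tRNA synthetases (0 of 6, interval to 45.9%), proteasome subunits (0 of 10, 30.8%) or the RNA polymerase II, TFIID and Mediator list (0 of 12, 26.5%). The insulator and promoter architecture list (0 of 5, 52.2%), cuticle proteins (0 of 49, 7.25%) and chemosensory receptors (0 of 42, 8.41%) had none either. Among these lists without a member, only the intervals of cuticle proteins and chemosensory receptors lie below the 13.0% of all genes. With a 300 bp window, synthetases had 1 of 5 and the polymerase list 1 of 13. The polymerase list had 1 of 11 in the conservative list, and 1 of 12 with the passing ranked peaks that the list lacks added. With protein-coding starts only, the insulator list had 1 of 6. Small RNA genes had few members. For tRNA genes it was 1 of 81 (tRNA:Val-CAC-1-1, 47.3), with an interval of 0.0313 to 6.69% that also lies below 13.0%. For snoRNA genes it was 3 of 63, the strongest being snoRNA:Or-ACA6 (139), with an interval of 0.993 to 13.3% that reaches 13.0%. Several lists also had peaks between diverging starts, among them 25 cytosolic ribosomal protein genes, 7 mitochondrial ribosomal protein genes and 6 of the polymerase list.

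**Figure D5:**
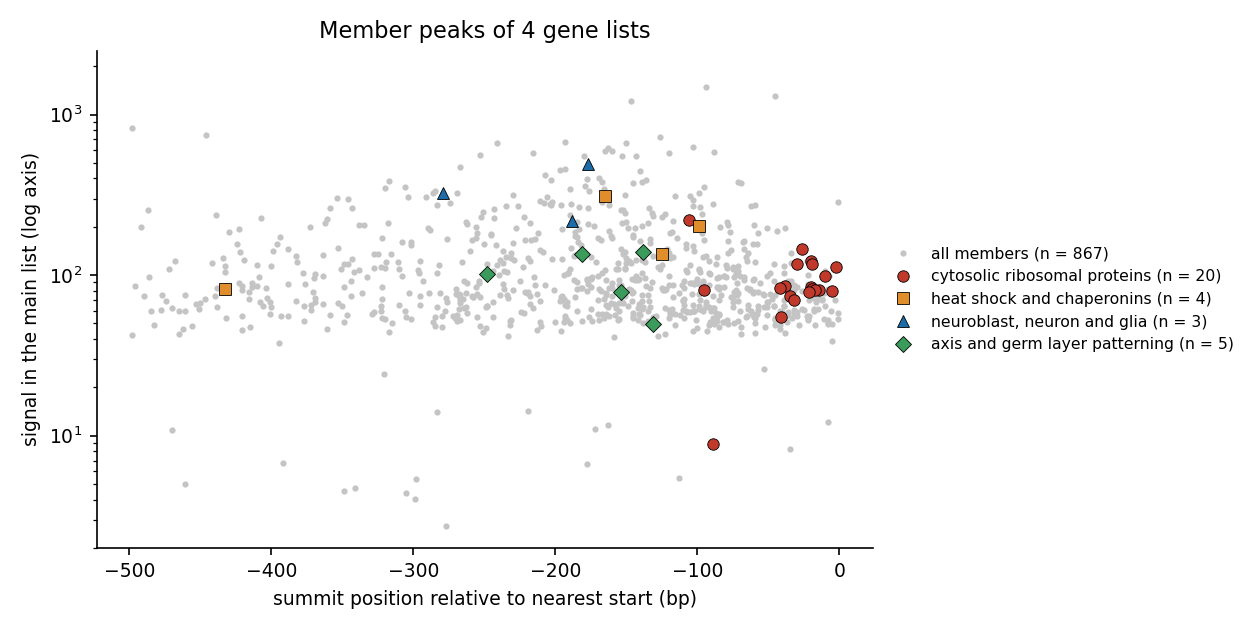
Signal in the joint list (log axis) against summit position for all members (grey) and for those of 4 gene lists. Of the 20 cytosolic ribosomal protein peaks 17 lie within 50 bp of the start, and the point at 8.90 is the weaker of a pair at RpS14b.

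Members had different surroundings but like signals. The nearest start belonged to a protein-coding gene in 818 cases, an ncRNA in 44, a snoRNA in 3, a tRNA in 1 and a pseudogene in 1. Signals of the 44 ncRNA members had a median of 98.6 (quartiles 67.6 and 156), those of the 818 protein-coding ones 82.9 (61.6 and 133). Summits lay outside every gene in 461 cases (53.2%), inside their own gene behind a later start in 298 (34.4%) and inside another gene in 108. Their median signals were 84.5, 82.6 and 81.7, so the spread within each group was far larger than the differences between them. Summits in their own gene lay farther from the start, at -185 bp (quartiles -285.75 and -107), than those outside genes, at -139 bp (-231 and -75). By annotation 320 summits were intronic, 49 in a 5' UTR, 18 in other exons, 17 in a 3' UTR and 2 in coding sequence. An opposite start lay beyond 500 and up to 1000 bp behind 129 members, whose median position was -102 bp.

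Several genes had more than 1 member peak. There were 46 such genes, of which 30 had members at different starts and 16 had all of them at the same nearest start. Rtnl1, a reticulon of the endoplasmic reticulum, had 4 members, with signals of 470, 271, 86.9 and 83.9 at -267, -235, -214 and -322 bp. Svil, a supervillin family gene, also had 4, from 45.2 to 170. Ptpmeg2, a tyrosine phosphatase gene, had 3, with 273, 235 and 172 at -203, -190 and -145 bp. The phosphodiesterase gene dnc had 3, with 323, 204 and 92.5 at -286, -335 and -344 bp.

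A small group of members were weak entries beside a stronger peak. Signals below 30 occurred in 20 members, from 2.74 at IP3K2 to 26.0 at ph-d, while every other member was at 37.7 or higher. All 20 overlapped a stronger listed peak, whose summit was 199 to 232 bp away and whose signal was 41.2 to 202. Replicate values for them are those of the ranked peak with the nearest summit, which can be the stronger one. Without peaks that overlap a stronger one 846 members remained.

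At the limit of the rule, the members farthest from their starts were mdy and ph-p, both at -498 bp, with signals of 42.7 and 827. The nearest one-directional upstream peaks left out were Pino and ced-6, both at -502 bp, with 143 and 52.6.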

How the data were processed

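Peak lists were deposited on dm6, per the file headers, for the replicates jointly and each alone, thresholded and ranked by the irreproducible discovery rate (IDR). Aligner and peak caller: not given in the sources used here. Column 7 is the signal value given by the authors; its reference level is unstated, so it ranks and describes peaks within a list; where the text sets the replicates' own values side by side, their scales may differ. The deposited ranked lists give the −log10 of the global IDR, and 8 further columns of per-sample values without a sample label were not used. Every listed peak had an IDR of at most 0.01.

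Summits were set against Ensembl release 115 starts of the same assembly, without transposable elements, on 7 chromosomes; 6 listed peaks elsewhere were left out. Single-replicate values came from the ranked peak of that replicate that shared a base, nearest summit first. Shares carry exact binomial (Clopper-Pearson) intervals. Classes were compared with two-sided Fisher's exact tests (scipy 1.17.1) at an adjusted p of 0.05, with Benjamini-Hochberg adjustment (statsmodels 0.14.6) over 30 comparisons. The code was tested on simulated data. Named genes were those of the 20 strongest members, up to 3 per gene list, the 5 strongest with CACAGTG and with the DRE, and those nearest the 500 bp limit; others were chosen after their values were seen. Members, gene lists, words and tests were chosen with earlier results of these data known.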

Additional observations from a re-analysis of the deposited data

Results flagged for a closer look

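The ranked list held 29 one-directional upstream summits that passed a global IDR of 0.01 and were not in the joint list, a signal in data outside the main measurement. The strongest were larp, an RNA-binding protein gene, with a signal of 646 at -334 bp, and cbt, a zinc finger gene, with 278 at -380 bp. CG4297 had 216, CG6966 180 and isoQC 146. Of the 29, 16 lay on 3R, 7 on 2L, 4 on 3L and 2 on 2R. The deposited text names 1 further input for the joint list that the ranked list lacks; its part in their absence was not tested.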

How the results depend on the processing

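No paired analysis was possible because the 2 replicates form a single group. Over 77 recomputed answers to the comparisons, 54 were classed as the same as the main answer. For tested shares this meant the same direction and side of the threshold. The number of members, the median position and the mean A and T content had no test. For them it meant only a value not classed as moved. No tested share passed the threshold in the opposite direction. For the strongest 25% of the list, the odds ratio against diverging starts turned from 0.778 to 1.11 without replicate 1. Neither passed the threshold. The number of members was 517 at an IDR of at most 0.001 and 527 to 568 in the own lists of single replicates. The median position, -156 bp, was -166 bp at that IDR, -128.5 bp with a window of 300 bp, -209 bp with 1000 bp and -164 bp with a flanking window of 1000 bp, and -168 to -165 bp in single replicates. The share of members in both own lists was 51.1% in the conservative list, 73.9% at the stricter IDR and 45.4% with the wider flanking window, with calls lost. The share in the strongest 25% of the list was 29.6% at the stricter IDR and 30.6% with a window of 300 bp, and 30.7 to 31.3% in single replicates. Mean A and T content was 65.7% at the stricter IDR and 62.1% within 100 bp of the summit, and 64.9 to 66.0% in single replicates. The share with at least 70% A and T was 35.5% with the wider flanking window. Motif comparisons passing numbered 10 within 100 bp of the summit, against 4 within 50 bp, and 0 to 1 with members of a single replicate's own list. The cause of these moves was not tested; fewer members enter the stricter and single-replicate lists. Leaving out overlapping weaker peaks and adding the 29 passing ones, both chosen after seeing the data, changed no call among the answers to the comparisons; with the 29 added, 1 of 12 genes of the polymerase list and 5 of 11 of the heat shock list were served, and without overlapping peaks 1 of 9 Polycomb and trithorax genes. Gene list shares stayed within the interval of the main value in 157 of 168 recomputed cases.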
